A study of Rattus norvegicus with 9 samples.

Results

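A set of 39 genes of DNA replication and S phase was described in rat bone marrow mesenchymal stem cells (BMSCs), which adhere in culture and give rise to bone, fat and cartilage lineages. The genes were taken by symbol from a deposited table of 33539 genes, and all 39 were found there. All 39 also passed the filter on low counts that left 14406 genes for testing. The cells had been kept for 48 h in an SA hydrogel, a soft water-swollen polymer that served as culture matrix. Gels differed in how quickly they relaxed an applied mechanical stress, and the groups were named Fast, Medium and Slow, with 3 samples each. Cells of every group were grown in low glucose DMEM with serum and antibiotics, and the 9 samples hold no group without a gel. Rat strain and age are not given in the labels used here. Separate animals or cultures are not stated for the samples of a group. The p-values thus rest on sample-to-sample spread that may be technical.

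Before a cell divides it copies its DNA once. Origins are first licensed: the origin recognition complex, Cdc6 and Cdt1 load the ring-shaped MCM2-7 helicase on DNA. At the start of S phase Cdc45 and the GINS complex join the helicase and open the strands, polymerases with their sliding clamp PCNA copy them, and ribonucleotide reductase and thymidylate enzymes supply the deoxynucleotides. Many of these genes are known targets of E2F factors, which the retinoblastoma protein holds back in resting cells. In stromal cultures the mRNA of such genes is commonly read as a sign of how many cells are cycling.

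The 9 libraries held between 14128980 and 15779328 counts. Each of the 39 genes took few of them: the mean count per library ran from 37.2 for Gins3 to 739 for Pcna. Mitochondrially encoded genes held 3.21% to 3.78% of counts in Fast, 3.57% to 3.62% in Medium and 3.58% to 3.71% in Slow, with Fast replicate 1 the highest. The 14 stromal marker genes were abundant as a sum in all libraries, at 34081 to 45850 CPM (counts relative to library size, with TMM factors). Thy1 stood at 923 CPM in Fast and 904 in Slow, but single stromal markers differed between these groups by log2 -1.65 to 1.51. Macrophage and other myeloid transcripts were counted too, as Adgre1 at 614 CPM in Fast gels, 406 in Medium gels and 292 in Slow gels. The T and B cell genes Cd3g, Cd79b and Ms4a1 and the erythroid gene Hbb had 0 counts in all libraries. Other genes of these lists were counted: the 12 lymphocyte and neutrophil markers summed to 26 to 74 counts per library. The 5 measured erythroid markers summed to 32 to 49.

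Per gene length, the most abundant of the 39 transcripts was Pcna, the sliding clamp. It averaged 41.0 ± 0.707 FPKM (counts scaled by gene length and library size, as deposited) in Fast gels, 44.2 ± 2.71 in Medium gels and 43.2 ± 0.928 in Slow gels (SD, n = 3 in these and all other means). The genes of the subunits of ribonucleotide reductase came next: Rrm2 averaged 20.7 FPKM over the 9 libraries and Rrm1 16.1. Of the MCM2-7 genes, Mcm2 (11.5 FPKM) and Mcm7 (10.8 FPKM) were listed above Mcm6 (8.86), Mcm4 (7.97), Mcm3 (7.05) and Mcm5 (5.59). In Slow, Mcm2 (10.4 ± 0.0709) and Mcm7 (10.1 ± 0.356) lay within their spread of each other, as did Mcm4 (7.14 ± 0.751) and Mcm6 (8.11 ± 0.321) to within their summed SDs. The lowest levels belonged to Gins3 (1.04), Cdc45 (0.758) and E2f2 (0.689). These levels depend on the deposited gene lengths, which run from 1077 bases for Gins1 to 7103 for Pole.

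**Figure D1:**
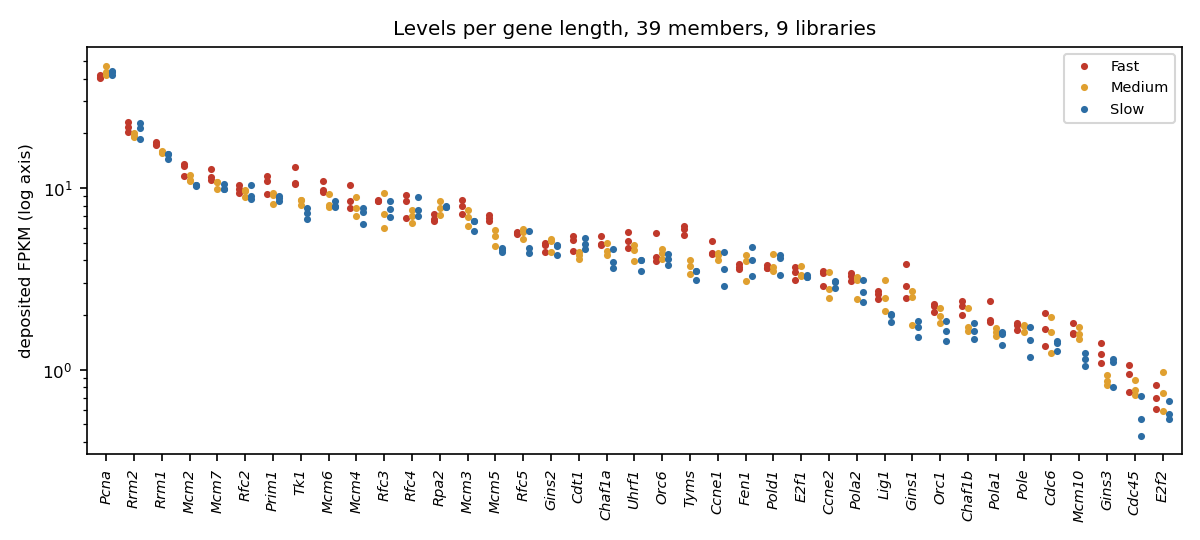
Deposited FPKM values (log axis) of the 39 genes in each library, ordered by their mean over the 9 libraries, with Fast, Medium and Slow side by side for each gene. Pcna stands at the left end near 42.8 FPKM and E2f2 at the right end near 0.689.

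The comparison of Fast with Slow took the gels that differ most in how quickly they relax. Of the 39 replication and S phase genes, 17 rose in Fast, 0 fell and 22 were not called. A gene was called where its p from edgeR's quasi-likelihood test, adjusted by Benjamini-Hochberg over all 14406 genes, lay under 0.05. Of all genes tested, 21.8% were called higher, 22.3% lower and 44% in either direction. Taken in either direction, the share of the 39 genes called was near that of all genes, but all 17 calls were on the higher side. Whether that split differs from the split over all genes was not tested. Higher genes made up 49.5% of all calls, but 59.7% with upper quartile factors and 65.1% with scaling by library size alone. Under these scalings 20 and 21 of the 39 genes rose and 0 fell, against 26.4% and 29.4% of all genes called higher. At an unadjusted p under 0.05 there were 22 of the 39, against 50.2% of all genes. The median log2 difference of the 39 genes was 0.28, against 0.01 over all genes tested, and 35 of the 39 values were positive. The changes were modest, with the largest at 1.81-fold (Gins1). Summed over the 39 genes, the level was 627 ± 6.48 CPM in Fast gels, 570 ± 1.71 in Medium gels and 536 ± 1.66 in Slow gels. Thus the summed level in Fast was 1.17 times that in Slow, and 1.24 times under scaling by library size alone. In 20 of the 39 genes all 3 Fast libraries lay above all 3 Slow libraries in CPM, against 26.1% of all genes tested. In 2 genes, Pcna and Rpa2, all Fast libraries lay below, against 25.7%.

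These are bulk values, in which fewer cells of a type and less RNA per cell cannot be told apart. Of the 19 myeloid markers, 15 rose and 2 fell in Fast over Slow, against 21.8% and 22.3% of all genes tested. Among these markers Lyz2, the lysozyme gene, rose by 1.48 ± 0.032, Aif1 by 1.64 ± 0.085, Cybb by 0.83 ± 0.042 and Adgre1 by 1.07 ± 0.031. The summed level of the 19 was 3127 to 3286 CPM over the Fast libraries, 2193 to 2207 CPM over Medium and 1863 to 1948 CPM over Slow. None of the 19 was at 0, and the pan-leukocyte gene Ptprc stood at 35.5 ± 0.926 CPM in Fast and 35.2 ± 1.22 in Slow (log2 difference 0.01 ± 0.073, SE). The 14 stromal markers summed to between 41781 and 45850 CPM in Fast and between 34081 and 34651 in Slow, with 5 markers higher and 6 lower. Of the other blood cell and endothelial markers few were tested: Cd2 and S100a8 rose, Epor fell, and none of 3 endothelial genes was called. What part stromal and myeloid cells had in the values of the replication genes was not tested.

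**Figure D2:**
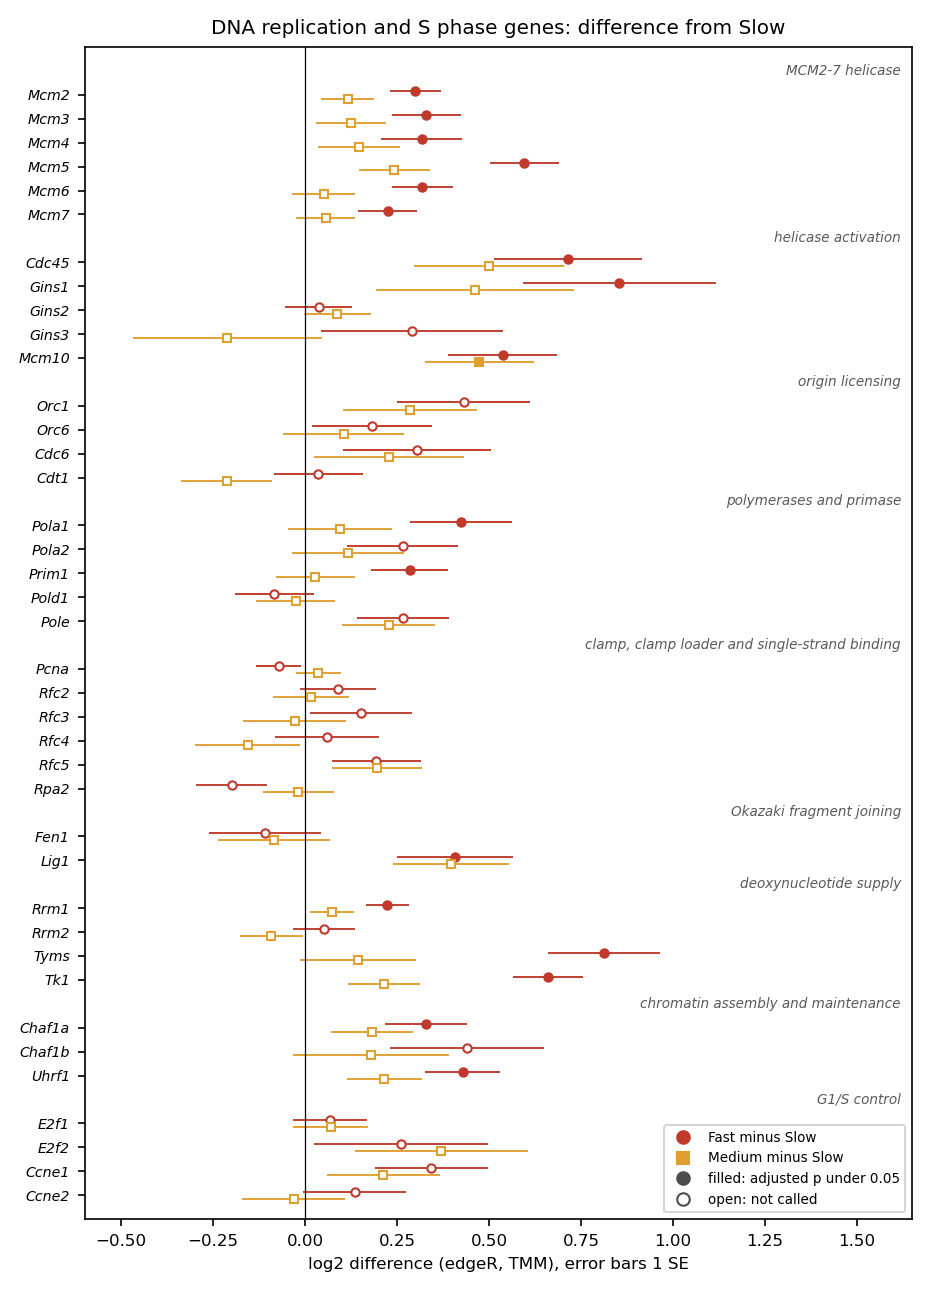
Log2 differences of the 39 genes from Slow, with 1 SE, for Fast (circles) and Medium (squares), ordered by role; filled symbols had an adjusted p under 0.05. All 6 MCM2-7 genes have filled circles, none of the 6 clamp, clamp loader and single-strand binding genes has one, and Mcm10 has the 1 filled square.

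All 6 genes of the MCM2-7 helicase, the ring that unwinds DNA ahead of the fork, rose in Fast over Slow, by log2 0.22 to 0.60. Mcm5 (ENSRNOG00000014336, chromosome 19 from 14523554 to 14561278 in the deposited table) stood at 22.5, 21.1 and 21.8 CPM in the Fast libraries, at 18.7, 17.2 and 15.3 CPM in Medium and at 14.8, 14.4 and 14.1 CPM in Slow. The 3 groups did not overlap, and the log2 difference of Fast from Slow was 0.60 ± 0.094 (SE, edgeR adjusted p = 3.77e-06), a 1.51-fold level. Mcm2 (ENSRNOG00000016316, chromosome 4 from 120825699 to 120840111) had 38.2, 44.3 and 43.1 CPM in Fast, 38.5, 36.02 and 36.04 CPM in Medium and 34.2, 34.0 and 33.8 CPM in Slow. All Fast and all Medium libraries lay above Slow, and Fast overlapped with Medium. Its difference of Fast from Slow was 0.30 ± 0.070 (edgeR adjusted p = 0.000769). Mcm3, Mcm4 and Mcm6 rose by 0.33 ± 0.094, 0.32 ± 0.11 and 0.32 ± 0.084, and Mcm7 by 0.22 ± 0.080. The summed level of the 6 genes was 175.9 ± 3.58 CPM in Fast gels, 151.4 ± 5.13 in Medium gels and 139.9 ± 1.67 in Slow gels. Over 21 alternative settings the adjusted p ran from 0.000747 to 0.123 for Mcm4 and from 0.00182 to 0.144 for Mcm7. The call for Mcm4 was lost without Fast replicate 1 (edgeR adjusted p = 0.109), without Slow replicate 2 (0.0689) or 3 (0.123), and with limma on FPKM (0.0918 and 0.0900 with pseudocounts of 1 and 0.1). That for Mcm7 was lost without Fast replicate 2 (0.144) and without Slow replicate 2 (0.0738) or 3 (0.0639), and with DESeq2 (0.0537).

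E2F factors bind short DNA sequences, and these were searched for in the promoters of the 39 genes. RefSeq promoters of the GRCr8 rat assembly, from 250 bases before to 50 bases after each annotated start, were matched by symbol for 32 of the 39 genes. Mcm4, Orc1, Cdc6, Rrm2, E2f1, E2f2 and Ccne2 were not matched. On either strand, 4 motifs were searched: TTTCCCGC, TTTCGCGC, TTTGCCGC and TTTGGCGC. At least 1 of them was found in 15 of the 32 genes (46.9%), in 2.14% of all 33469 promoters and in 4.04% of the 9478 tested genes with a matched promoter. Related gene lists, described below, held a motif too. The share was 42.9% of 21 genes of fork protection and checkpoint and 37.9% of 29 of other replication machinery. It was 36.8% of 19 genes of other S phase and G1/S control and 7.14% of 14 of other nucleotide supply. The motifs are rich in G and C, and the median GC content was 59.8% in the 32 genes and 61.0% in the tested genes. Among genes called higher in Fast than Slow, 10 of 16 held a motif, and among those not called 5 of 16. Whether these shares differ was not tested. A match says only that the letters are there. Only exact matches to the 4 motifs were counted, so a gene without a match may hold another form of the site. Motifs on opposite strands that overlapped by 4 bases, giving 1 run of 12 bases, were found in 6 of all the promoters. These were Mcm2, Mcm5, Mcm6 and Gins1, all called higher in Fast, and a pair of promoters of Topbp1, a gene of replication initiation outside the 39. Topbp1, named after its values were seen, was lower in Fast, at 16.03 ± 0.804 CPM against 19.1 ± 0.936 in Slow (log2 -0.25 ± 0.097, edgeR adjusted p = 0.0357). The promoters of those 4 genes are shown with that of Tyms, which had a large difference, and that of Pcna, which was the most abundant, was not called and held none of the 4 motifs. Letters run 5′ to 3′ on the gene's strand, and capitals mark the motifs.
Mcm2, chr4:122918045-122918344, minus strand: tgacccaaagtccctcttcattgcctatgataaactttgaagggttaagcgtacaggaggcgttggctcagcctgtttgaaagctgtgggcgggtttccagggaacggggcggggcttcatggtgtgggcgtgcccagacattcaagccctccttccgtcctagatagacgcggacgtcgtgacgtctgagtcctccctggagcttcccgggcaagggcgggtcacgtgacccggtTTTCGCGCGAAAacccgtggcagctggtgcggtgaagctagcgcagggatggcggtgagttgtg
Mcm5, chr19:13488563-13488862, plus strand: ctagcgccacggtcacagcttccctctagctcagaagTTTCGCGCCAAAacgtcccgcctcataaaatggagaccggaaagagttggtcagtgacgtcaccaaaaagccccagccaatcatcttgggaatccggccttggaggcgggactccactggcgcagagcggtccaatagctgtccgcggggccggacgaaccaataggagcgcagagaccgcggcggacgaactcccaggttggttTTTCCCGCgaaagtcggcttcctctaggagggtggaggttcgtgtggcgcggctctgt
Mcm6, chr13:42404303-42404602, minus strand: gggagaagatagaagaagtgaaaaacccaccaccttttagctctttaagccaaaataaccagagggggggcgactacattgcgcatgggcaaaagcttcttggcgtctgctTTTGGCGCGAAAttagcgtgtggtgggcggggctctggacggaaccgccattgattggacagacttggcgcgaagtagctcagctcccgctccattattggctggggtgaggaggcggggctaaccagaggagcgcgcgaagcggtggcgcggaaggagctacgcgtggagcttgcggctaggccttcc
Gins1, chr3:160184670-160184969, plus strand: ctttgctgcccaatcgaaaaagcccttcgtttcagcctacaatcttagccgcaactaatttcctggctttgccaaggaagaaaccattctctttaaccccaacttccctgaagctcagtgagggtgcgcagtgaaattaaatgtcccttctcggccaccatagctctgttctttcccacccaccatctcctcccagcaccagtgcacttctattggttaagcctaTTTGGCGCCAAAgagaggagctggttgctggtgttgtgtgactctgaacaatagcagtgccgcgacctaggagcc
Tyms, chr9:120776034-120776333, minus strand: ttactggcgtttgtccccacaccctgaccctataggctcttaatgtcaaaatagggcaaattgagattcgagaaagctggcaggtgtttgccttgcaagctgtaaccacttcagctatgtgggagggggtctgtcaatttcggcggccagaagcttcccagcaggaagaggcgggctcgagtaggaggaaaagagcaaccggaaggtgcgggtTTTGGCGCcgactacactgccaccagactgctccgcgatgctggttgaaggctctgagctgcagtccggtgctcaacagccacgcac
Pcna, chr3:139955771-139956070, minus strand: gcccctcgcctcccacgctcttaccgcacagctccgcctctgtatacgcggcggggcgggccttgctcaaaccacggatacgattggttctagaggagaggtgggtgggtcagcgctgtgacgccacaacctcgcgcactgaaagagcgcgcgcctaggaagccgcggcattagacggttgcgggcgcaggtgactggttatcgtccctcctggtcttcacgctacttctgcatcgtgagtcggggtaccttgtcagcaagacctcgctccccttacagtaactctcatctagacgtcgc
In Mcm2 the run TTTCGCGCGAAA began at position -14 from the annotated start, in Mcm5 TTTCGCGCCAAA at -213, in Mcm6 TTTGGCGCGAAA at -139 and in Gins1 TTTGGCGCCAAA at -25. Tyms held TTTGGCGC at -37. The CCAAT motif, on either strand, was found in 62.5% of the 32 genes and in 38.6% of the tested genes, and TTTGAA in 6.25% and 12.4%. CCAAT was also found in 76.2% of 21 genes of mitosis and G2/M, 60.0% of 10 stromal markers and 57.1% of 14 myeloid markers. Its share was 47.6% in fork protection and checkpoint, 42.1% in other S phase and G1/S control and 41.4% in other replication machinery. In other nucleotide supply it was 35.7%.

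Of the 5 genes that turn the loaded ring into an active helicase, Gins1, Mcm10 and Cdc45 rose and Gins2 and Gins3 were not called. Gins1, a GINS subunit, had 3.13, 2.69 and 4.12 CPM in Fast, 2.73, 1.90 and 2.94 CPM in Medium and 1.85, 1.621 and 2.01 CPM in Slow. The Fast libraries lay above all Slow libraries, and Medium overlapped with both. The rise was 0.85 ± 0.26 (edgeR adjusted p = 0.00861), on counts of 43 to 61 in Fast and 25 to 29 in Slow, and its call was lost without Fast replicate 3 (0.0713; 0.00391 to 0.0713 over the alternatives). Mcm10, which helps to start unwinding, had 7.94, 8.12 and 9.13 CPM in Fast, 7.97, 7.46 and 8.67 CPM in Medium and 5.77, 6.22 and 5.34 CPM in Slow. Fast and Medium overlapped and both lay above Slow, so that Mcm10 was higher in Fast by 0.54 ± 0.15 (adjusted p = 0.00360) and in Medium by 0.47 ± 0.15 (0.0337). Cdc45, the helicase cofactor, rose in Fast by 0.72 ± 0.20 (0.00430). Gins2, another GINS subunit and the most abundant gene of the 5 per length, had 18.6, 20.4 and 21.1 CPM in Fast, 18.8, 21.4 and 22.1 CPM in Medium and 20.5, 20.03 and 18.1 CPM in Slow. Its groups overlapped, with a difference of Fast from Slow of 0.04 ± 0.091, and Gins3 differed by 0.29 ± 0.25.

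None of the 4 origin licensing genes passed the test in Fast against Slow. Orc1, the largest subunit of the origin recognition complex, had 5.92, 5.31 and 5.75 CPM in Fast, 5.59, 5.09 and 4.66 CPM in Medium and 4.77, 4.15 and 3.67 CPM in Slow. All Fast libraries lay above all Slow libraries, and the difference was 0.43 ± 0.18 with an edgeR adjusted p of 0.0532. That p lay on the other side of 0.05 with limma-voom (0.0391) and without Slow replicate 1 (0.0386), and in 8 of 21 alternatives in all (0.0198 to 0.183). Cdt1, which loads the MCM ring, had 10.2, 12.3 and 11.6 CPM in Fast, 9.95, 9.63 and 9.10 CPM in Medium and 11.9, 10.4 and 11.02 CPM in Slow. Fast and Slow overlapped (0.04 ± 0.12), and all Medium libraries lay below both, without passing the test (-0.21 ± 0.12 against Slow, adjusted p = 0.312). Cdc6 and Orc6 differed between Fast and Slow by 0.30 ± 0.20 and 0.18 ± 0.16.

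Among the 5 polymerase and primase genes, Pola1 and Prim1 rose. They encode the catalytic subunit of polymerase alpha and the primase that makes its RNA primers. Prim1 had 18.8, 14.9 and 17.6 CPM in Fast, 13.1, 15.1 and 14.7 CPM in Medium and 14.4, 13.6 and 14.1 CPM in Slow. Pola1 had 12.8, 10.0 and 9.74 CPM in Fast, 9.06, 8.14 and 8.67 CPM in Medium and 7.27, 8.56 and 8.39 CPM in Slow. In both genes Fast lay above Slow without overlap, and Fast replicate 1 was the highest of the 9 libraries. The differences were 0.28 ± 0.10 for Prim1 (edgeR adjusted p = 0.0272) and 0.42 ± 0.14 for Pola1 (0.0129). Without Fast replicate 1 neither was called (0.147 for Prim1, 0.122 for Pola1). The call for Prim1 was also lost without Fast replicate 3 (0.0834) or Slow replicate 2 (0.0833) or 3 (0.0590), and with DESeq2 (0.0675), and that for Pola1 without Slow replicate 1 (0.0647) and with limma on log2(FPKM + 0.1) (0.0535). The alternatives ran from 0.00423 to 0.147 for Prim1 and from 0.00304 to 0.122 for Pola1. The accessory subunit gene Pola2 differed by 0.27 ± 0.15, and the catalytic subunit genes of polymerases epsilon and delta, Pole and Pold1, by 0.27 ± 0.13 and -0.08 ± 0.11. The sign for Pold1 turned under scaling by library size alone (0.0018). Pole passed 0.05 without Slow replicate 3 (0.0189), the highest of its Slow libraries, and in 3 of 21 alternatives in all (0.0189 to 0.418).

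Of the genes for the clamp, its loader and the single-strand binding protein, 0 of 6 passed the test in either direction. Pcna (chromosome 3 from 124880698 to 124884570) had 47.8, 48.7 and 46.9 CPM in Fast, 50.5, 55.0 and 49.0 CPM in Medium and 50.6, 51.0 and 49.2 CPM in Slow. All Fast libraries lay just below all Slow libraries, with a difference of -0.07 ± 0.061 (edgeR adjusted p = 0.359), which was 0.01 under scaling by library size alone. With 684 to 811 counts per library, Pcna had one of the smallest errors among the 39 genes. Rpa2, a subunit of the single-strand binding complex RPA, had 14.1, 15.3 and 14.4 CPM in Fast, 15.1, 18.0 and 16.6 CPM in Medium and 16.7, 16.9 and 16.8 CPM in Slow. Fast again lay below Slow (-0.20 ± 0.097, adjusted p = 0.0979), and Medium overlapped with both. The clamp loader genes Rfc2, Rfc3, Rfc4 and Rfc5 had differences between 0.06 and 0.19, with adjusted p between 0.208 and 0.765.

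Of the 2 genes that finish Okazaki fragments, the ligase gene Lig1 rose and the flap nuclease gene Fen1 did not pass. Lig1 had 8.27, 8.06 and 7.50 CPM in Fast, 6.47, 9.56 and 7.59 CPM in Medium and 5.63, 6.16 and 6.17 CPM in Slow, with Fast and Medium above Slow. Its rise of 0.41 ± 0.16 (edgeR adjusted p = 0.0353) was called in 13 of 21 alternatives (0.0108 to 0.103). It was lost without Fast replicate 1 (0.0789) or 2 (0.0784), without Slow replicate 1 (0.103), 2 (0.0620) or 3 (0.0618), with DESeq2 (0.0716) and with limma on FPKM (0.0569 and 0.0583). Fen1 had 8.33, 7.87 and 8.04 CPM in Fast, 6.75, 8.61 and 9.31 CPM in Medium and 10.3, 7.13 and 8.80 CPM in Slow. Slow overlapped with both other groups, and the difference of Fast from Slow was -0.11 ± 0.15.

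Genes of deoxynucleotide supply differed among themselves. Tyms, the thymidylate synthase gene (chromosome 9 from 121918947 to 121931564), had 9.12, 9.50 and 8.52 CPM in Fast, 5.72, 6.17 and 5.16 CPM in Medium and 5.34, 5.32 and 4.78 CPM in Slow. Fast stood above both other groups, which overlapped, and the rise over Slow was 0.81 ± 0.15 (edgeR adjusted p = 5.81e-05), a 1.76-fold level. The thymidine kinase gene Tk1, a salvage enzyme (chromosome 10 from 106817601 to 106828884), had 29.2, 23.9 and 23.5 CPM in Fast, 19.2, 17.8 and 19.1 CPM in Medium and 16.2, 14.9 and 17.3 CPM in Slow. Its 3 groups did not overlap, and Fast was higher than Slow by 0.66 ± 0.095 (8.38e-07). The large subunit gene of ribonucleotide reductase, Rrm1, had 54.6, 52.1 and 52.6 CPM in Fast, 47.9, 47.3 and 48.1 CPM in Medium and 46.2, 46.4 and 43.8 CPM in Slow. Here too the groups did not overlap, with a rise of 0.22 ± 0.059 (0.00243). The small subunit gene Rrm2 had 25.6, 27.1 and 23.9 CPM in Fast, 23.8, 22.6 and 22.9 CPM in Medium and 21.9, 26.6 and 25.2 CPM in Slow. The range of Slow held every other library but Fast replicate 2, and the difference of Fast from Slow was 0.05 ± 0.084 (adjusted p = 0.653).

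Of 3 genes that assemble and maintain newly copied chromatin, Chaf1a and Uhrf1 rose. Chaf1a, the large subunit of chromatin assembly factor 1, had 14.8, 16.6 and 14.9 CPM in Fast, 13.6, 15.1 and 13.04 CPM in Medium and 11.04, 11.8 and 14 CPM in Slow. Fast lay above Slow, Medium overlapped with both, and the rise was 0.33 ± 0.11 (edgeR adjusted p = 0.0163). It was no longer called without Fast replicate 2 (0.0871), Slow replicate 1 (0.0927) or Slow replicate 2 (0.0609), with a range of 0.00280 to 0.0927 over the alternatives. Uhrf1, which guides DNA methylation onto new strands, rose by 0.43 ± 0.10 (0.000825). The smaller subunit gene Chaf1b had 4.10, 4.87 and 4.60 CPM in Fast, 3.34, 4.48 and 3.51 CPM in Medium and 3.70, 2.98 and 3.33 CPM in Slow. Its Fast libraries lay above Slow, with a difference of 0.44 ± 0.21 that did not pass (0.0882), on counts of 46 to 78 in these libraries.

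None of the 4 genes of G1/S control passed the test. Ccne1, a cyclin that drives entry into S phase with Cdk2, had 8.53, 10.1 and 8.59 CPM in Fast, 8.59, 7.87 and 8.38 CPM in Medium and 5.63, 8.69 and 7.07 CPM in Slow. Slow replicate 2 lay within the Fast range, and the difference was 0.34 ± 0.15 (edgeR adjusted p = 0.0690), or 0.51 without that library (0.0153; 0.0153 to 0.334 over the alternatives). The other cyclin E gene, Ccne2, differed by 0.13 ± 0.14. The activator genes E2f1 and E2f2 differed by 0.07 ± 0.10 (0.618) and 0.26 ± 0.24 (0.397). E2f1 had 14.2, 16.7 and 15.6 CPM in Fast, 14.8, 16.8 and 15.0 CPM in Medium and 14.6, 15.0 and 14.8 CPM in Slow, and its groups overlapped.

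**Figure D3:**
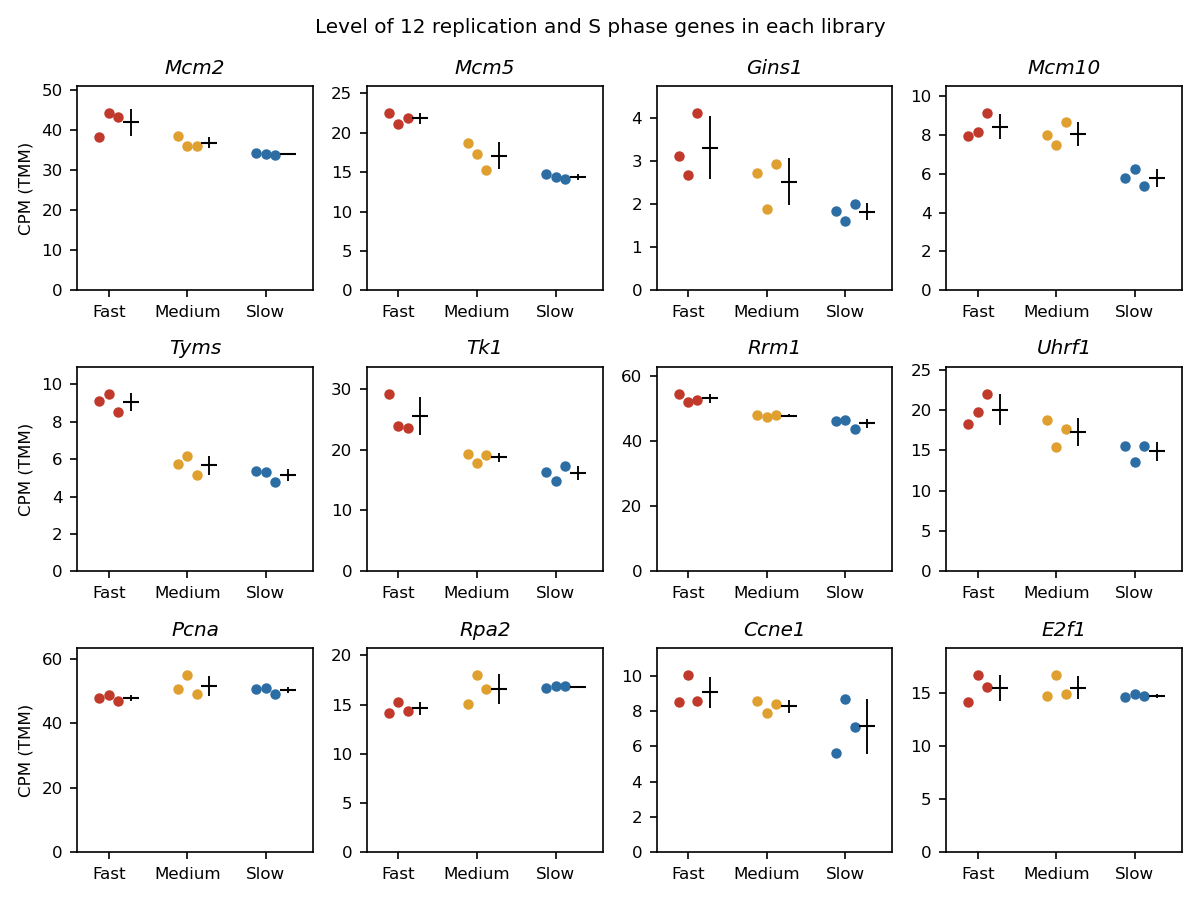
Level in each library (points, CPM with TMM factors) of 12 replication and S phase genes in Fast, Medium and Slow; crosses give the mean and SD of 3 libraries. Mcm5, Tk1 and Rrm1 step down from Fast through Medium to Slow without overlap, while Pcna lies between 46.9 and 55.0 CPM throughout.

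Medium lay between the ends for most of these genes. In Medium against Slow 1 of the 39 genes, Mcm10, was called higher and 0 lower, where 5.44% of all genes were called higher, 6.18% lower and 11.6% in either direction. All Medium libraries lay above Slow in 7 genes and below in 1, Cdt1, against 14.3% and 15.2% of all genes tested. At an unadjusted p under 0.05 there were 6 of the 39, against 23.4% of all genes. The median log2 difference was 0.12, against 0.00357 over all genes tested, and 30 of 39 values were positive. The call for Mcm10 was lost without Medium replicate 1 (edgeR adjusted p = 0.0798) or 3 (0.137), without Slow replicate 1 (0.0812) or 3 (0.128), with DESeq2 (0.0801), with limma on FPKM (0.0648 and 0.0784) and with no filter beyond 1 count (0.0517), and its range was 0.0258 to 0.137. In Fast against Medium 6 of the 39 were higher and 0 lower, against 16.2% and 17.9% of all genes tested, or 34.1% in either direction. The 6 called genes were Mcm2 (0.18 ± 0.070), Mcm5 (0.35 ± 0.092), Mcm6 (0.27 ± 0.083), Rrm1 (0.15 ± 0.059), Tyms (0.67 ± 0.15) and Tk1 (0.45 ± 0.094). With upper quartile factors 11 rose, against 19.8% of all genes, and with scaling by library size alone 13, against 22.7%. Higher genes made up 47.5% of all calls in this comparison, 58% with upper quartile factors and 64.1% with scaling by library size alone. At an unadjusted p under 0.05 there were 11 of the 39, against 42.1% of all genes. All Fast libraries lay above all Medium libraries in 10 genes and below in 1, Pcna, against 21.9% and 22.7% of all genes tested. The calls for Mcm5, Tyms and Tk1 held without any 1 library. That for Mcm6 was lost without Fast replicate 1 (0.0614) or Medium replicate 1 (0.0781) or 3 (0.0568), with 0.00167 to 0.0781 over the alternatives. The call for Mcm2 was lost under 10 of 21 alternatives (0.00444 to 0.184), among them the removal of Fast replicate 2 (0.184) or 3 (0.118), Medium replicate 2 (0.124) or 3 (0.124) and Slow replicate 3 (0.0523). That for Rrm1 was also lost under 10 of 21 (0.00317 to 0.113), and was lost when any library but Slow replicate 1 was left out (0.113, 0.0630 and 0.0678 for Fast replicates 1, 2 and 3, 0.0980, 0.110 and 0.0888 for Medium replicates 1, 2 and 3, and 0.0564 and 0.0534 for Slow replicates 2 and 3).

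These comparisons share libraries, so their values are set side by side only. For Tyms the step of Fast over Medium was 0.67 ± 0.15 and that of Medium over Slow 0.14 ± 0.16. For Mcm10 the order was the other way, with 0.06 ± 0.14 for Fast over Medium and 0.47 ± 0.15 for Medium over Slow, and for Lig1 the steps were 0.01 ± 0.15 and 0.40 ± 0.16. Over the 17 genes called in Fast against Slow, the log2 step of Medium over Slow was between 9.83% (Prim1) and 97.0% (Lig1) of that of Fast over Slow, with a median of 38.6%. Whether a gene in Medium lay off the midpoint of Fast and Slow was tested directly: 0 of 39 genes were called in either direction by edgeR, against 8.09% of all genes above, 5.48% below and 13.6% in either direction. At an unadjusted p under 0.05 there was 1, against 24.4% of all genes, and DESeq2 also called 0. Group means stood in the order Fast above Medium above Slow in 25 of the 39 genes, against 28.2% of all genes tested. All libraries kept that order in Mcm5, Rrm1 and Tk1, that is in 3 of 39, against 5.31% of all genes.

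The other genes of the same processes moved in both directions in Fast over Slow. So did all genes tested, of which 21.8% were called higher and 22.3% lower. Of 34 measured genes of other replication machinery, 6 rose and 5 fell in Fast over Slow (median log2 0.06). Those with the smallest p were Top1, a topoisomerase that relieves supercoils (-0.36 ± 0.063), Pold4, a small subunit of polymerase delta (-0.37 ± 0.069), Pole3 of polymerase epsilon (0.48 ± 0.096) and Rnaseh2b of ribonuclease H2 (0.48 ± 0.097). Of 18 other genes of nucleotide supply, 5 rose and 4 fell (0.07). The mitochondrial folate enzymes Mthfd2 and Shmt2 fell by 0.69 ± 0.053 and 0.36 ± 0.044, while thymidylate kinase, Dtymk, rose by 0.43 ± 0.078 and the guanine nucleotide enzyme gene Impdh2 by 0.16 ± 0.038.

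Of 24 tested genes of other S phase and G1/S control, 7 rose and 3 fell (median -0.04), against 21.8% and 22.3% of all genes. Cyclin A2, which acts with Cdk2 in S phase, rose: Ccna2 stood at 18.9 ± 1.24 CPM in Fast gels, 14.6 ± 1.27 in Medium gels and 12.2 ± 0.201 in Slow gels (0.63 ± 0.10, edgeR adjusted p = 4.90e-06). Genes of E2F factors that repress together with pocket proteins fell: E2f5 stood at 8.55 ± 0.654 CPM in Fast gels, 11.4 ± 1.12 in Medium gels and 15.1 ± 0.673 in Slow gels (-0.82 ± 0.12), and E2f4 differed by -0.28 ± 0.063. The pocket protein gene Rbl2 rose by 0.25 ± 0.061. The atypical repressors E2f7 and E2f8, named after their values were seen, rose by 0.71 ± 0.27 (adjusted p = 0.0314) and 0.87 ± 0.29 (0.0149). Of 24 genes of fork protection and checkpoint, 5 rose and 3 fell (0.11), against the same shares of all genes. Fancd2 (0.51 ± 0.13) and the clamp gene Hus1 (0.26 ± 0.076) were higher. Msh6 (-0.34 ± 0.079) and Blm (-0.38 ± 0.10), of mismatch repair and fork repair, were lower.

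In Medium over Slow, 5 of 24 measured genes of mitosis and G2/M rose and 0 fell, against 5.44% and 6.18% of all genes tested. In Fast over Slow 22 of the 24 were called higher and 0 lower (median 0.52), against 21.8% and 22.3% of all genes. The smallest p belonged to Mki67, the marker of cycling cells (0.71 ± 0.061), Top2a (0.51 ± 0.073), Tpx2 (0.54 ± 0.083) and Cdc20 (0.63 ± 0.097). Their summed level was 509 ± 22.9 CPM in Fast gels, 419 ± 2.65 in Medium gels and 359 ± 5.86 in Slow gels, 1.42 times as high in Fast as in Slow. For the 39 replication genes that ratio was 1.17, and for the 34 other replication genes 0.997, or 1.06 under scaling by library size alone. Whether these ratios differ from each other was not tested. In the promoters of 21 of these mitotic genes TTTGAA was found in 71.4% and an E2F motif in 4.76%.

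**Figure D4:**
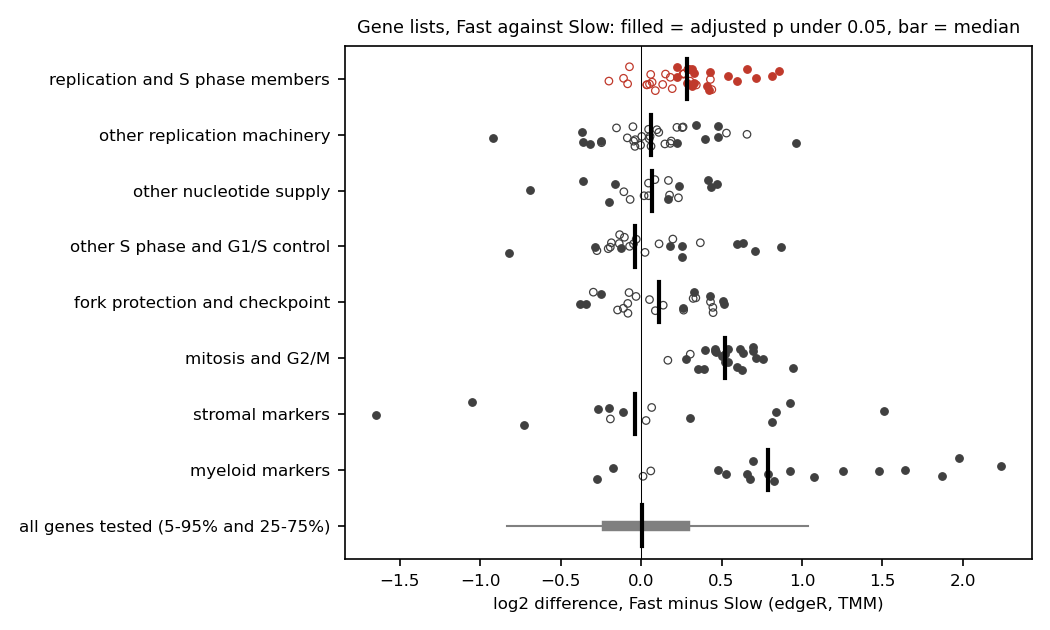
Log2 differences of Fast from Slow for the genes of each list (points, filled where the adjusted p was under 0.05), with the list's median as a bar and the spread of all 14406 tested genes as the bottom row (thin line, 5th to 95th percentile; thick line, quartiles). The replication and S phase genes lie between -0.20 and 0.85 with a median of 0.28, the mitotic genes around 0.52.

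**Figure D5:**
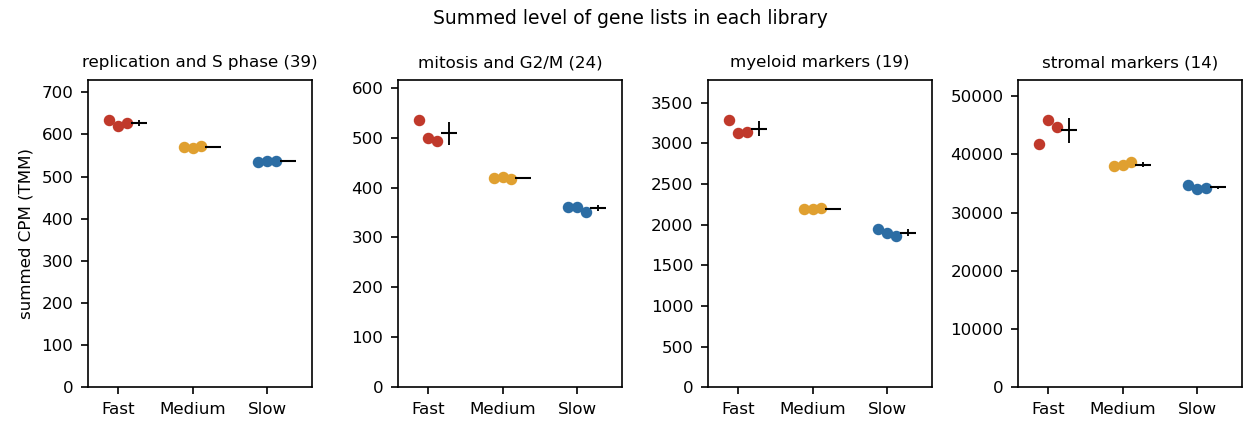
Summed CPM (TMM factors) of 4 gene lists in each library (points), with crosses for the mean and SD of 3 libraries in Fast, Medium and Slow. All 4 sums are highest in Fast and lowest in Slow, with the replication genes at 627, 570 and 536 CPM. Single stromal markers moved both ways in Fast over Slow, with 5 called higher, 6 lower and a median log2 difference of -0.039.

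Of the 20 most counted of the 39 genes 11 were called in Fast against Slow, and of the 19 least counted 6, although the median difference was 0.25 in the first and 0.30 in the second. Standard errors ran from 0.0589 to 0.126 in the first and from 0.121 to 0.263 in the second. Whether the shares called differ between these sets was not tested. A gene such as Chaf1b or Cdc6 that missed the threshold is therefore not shown to be equal in Fast and Slow. Of the 17 called genes 10 were called under all 21 alternatives: Mcm2, Mcm3, Mcm5, Mcm6, Cdc45, Mcm10, Rrm1, Tyms, Tk1 and Uhrf1. In the authors' deposited table, whose folds are given as Slow over Fast, 10 of the 39 genes were lower in Slow at an adjusted p under 0.05 and 0 were higher, against 11.1% and 12.7% of all genes with an adjusted p there. The authors' deposited table gives 0 of 39 lower and 0 higher for Slow over Medium (3.79% and 5.13% of all genes), and 3 lower and 0 higher for Medium over Fast (8.56% and 9.96%). It rests on the same samples and is no independent support.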

How the data were processed

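Polyadenylated RNA of 9 samples was made into libraries with a QIAGEN single cell kit and sequenced on an Illumina instrument, per the labels. The authors deposited 1 table with a raw read count and an FPKM value per gene and sample, per the file headers. The deposited FPKM values are the counts over gene length and over a sample constant, 0.976 to 1.05 times the total count (checked at 20 or more counts). The authors' log2 fold changes and adjusted p-values are deposited there too, and the test behind them is not stated. Bowtie 0.12.9, Cufflinks 2.1.1, HTSeq and mm10 are named in the submitters' processing notes. As mm10 is a mouse build and the gene identifiers are rat Ensembl ones, the build behind the coordinates is not given in the sources used here. Strand use in counting is not stated, so reads of overlapping or near-identical genes may be misassigned.

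Counts of 14406 genes (filterByExpr, minimum count 10, holding 99.9% of counts) were scaled with TMM factors of 0.972 to 1.04 and tested with edgeR 4.0.16 (R 4.3.3), quasi-likelihood with robust estimation, with all 9 samples in 1 model. An adjusted p under 0.05 was a call. CPM values use the TMM factors. A symbol on 2 rows (Dbf4) took the row with more counts. The members and lists were chosen with earlier results of these data known; of 189 entries in 10 other lists, 182 were in the table. Library values are given for the most abundant member per length and the member with the largest Fast against Slow difference in each role, for members called in Medium, and for Tk1, Rrm1 and E2f1, chosen after their values were seen. From each other list, except the stromal and endothelial ones, up to 4 genes with the smallest p are named. Thy1, Ptprc and the marker genes with 0 counts were named outside this rule. Replicates differed by more than counting noise (chi-square per degree of freedom 2.88 to 6.36) and were kept as separate samples. Alternatives were other scalings, filters and tools (DESeq2 1.42.0, limma 3.58.1), pairs of groups alone, a replicate block and each library left out.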

Additional observations from a re-analysis of the deposited data

How the results depend on the processing

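Each of the 39 genes was called on the same side of 0.05 in Fast against Slow under all 21 alternatives, except Mcm4, Mcm7, Gins1, Pola1, Prim1, Lig1 and Chaf1a, which lost the call under at least 1, and Orc1, Pole, Chaf1b and Ccne1, which gained it. With edgeR without robust estimation, chosen after seeing the data, 18 of the 39 genes and 3049 of all genes rose in Fast against Slow. In Fast against Medium 6 genes rose (16.2% of all genes), against 11 under upper quartile scaling (19.8%) and 13 with library size only (22.7%). In Medium against Slow 1 rose, against 0 with DESeq2, with no filter beyond 1 count and with limma on log2(FPKM + 1) or log2(FPKM + 0.1). Of all genes 783 rose in the main fit there, and 601, 824, 537 and 534 under these alternatives. The median log2 difference in Fast against Slow was 0.3708 with library size only and 0.1997 on the log2(FPKM + 1) scale, which understates changes of low genes, and that in Fast against Medium was 0.2216 with library size only. Library size only moved the median of all genes by 0.0859 in Fast against Slow and by 0.07 in Fast against Medium, where upper quartile scaling moved it by 0.0435. The cause of these changes was not tested.

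With 1 library left out, 13 to 17 genes rose in Fast against Slow, 0 to 1 in Medium against Slow and 4 to 6 in Fast against Medium. Some uncalled differences of Fast from Slow changed sign. With library size only they were 0.0018 for Pold1 and 0.0139 for Pcna. With 1 library left out they ran from -0.0163 to 0.0874 for Gins2, from -0.0258 to 0.111 for Cdt1, from -0.0263 to 0.173 for Rfc4, from -0.2368 to 0.0223 for Fen1 and from -0.0229 to 0.1143 for Rrm2.

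Same-numbered samples did not deviate together (correlations of -0.0323 to 0.0456 over 9 pairs), so replicate numbers were not taken to pair samples. With the replicate block 17 genes rose in Fast against Slow, 1 in Medium against Slow and 5 in Fast against Medium, where Mcm2 had an adjusted p of 0.05005 by edgeR. Of all genes 3129, 797 and 2324 were called higher with that block.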
